A study of Mus musculus with 11 samples.

Results

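The 10 core genes of the circadian clock were followed by RNA-seq in the ACC (anterior cingulate cortex), a prefrontal area, of trained and untrained mice. They are Per1, Per2, Per3, Cry1, Cry2, Arntl, Clock, Dbp, Nr1d1 and Nr1d2. The genes were picked by name, and all 10 were among the 14974 genes of the expression table. All 10 also passed the filter on low values, a mean of 0.1 FPKM or more, as 14936 genes did, where FPKM is fragments scaled to gene length and library size. All mice were adult wild-type C57BL/6 animals (C57BL/6J in the study's methods) on restricted food. The 6 trained mice (3 female, 3 male) had learned to press a lever for food pellets. The 5 untrained mice (3 female, 2 male) spent the same time in the chamber and got the same rewards without pressing. The ACC was dissected within 1 h of the last training day, and each library came from 1 mouse. Mice lived under a day and night cycle, but no source used here gives the clock time of dissection, so a difference in time of day between the groups could not be examined. Libraries are called by their group and label number (Trained 1, 2, 3, 12, 13 and 14, and Untrained 5, 6, 10, 16 and 17). Libraries 1 to 6 were all from females and libraries 10 to 17 from males, except for Untrained 17, which was from a female, so number range and sex are nearly the same division.

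The mammalian clock is a feedback loop of transcription that runs in nearly every cell. CLOCK and ARNTL (also called BMAL1) bind E-boxes and switch on the Per and Cry genes, whose proteins return to the nucleus and block CLOCK and ARNTL. The nuclear receptors REV-ERBα and REV-ERBβ (Nr1d1 and Nr1d2) repress Arntl in a second loop, and DBP carries the rhythm to output genes. Per1 differs from most of this set in that it is also induced within an hour by cAMP and calcium signals and by glucocorticoid. It is therefore known both as a clock gene and as an activity-induced gene in neurons.

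Of the 10 genes, Per1 alone was higher in trained mice at an unadjusted limma p under 0.05, and none was lower at that threshold. Among all genes tested, 4.13% were higher and 4.2% were lower at the same threshold. Under 0.01 Per1 was again the only member, beside 0.937% of all genes that were higher. Per1 did not reach 1.5-fold, so 0 of 10 members passed the thresholds the study used (unadjusted p under 0.01 and 1.5-fold), which 0.147% of all genes passed upward. By limma with Benjamini-Hochberg adjustment over all 14936 genes no member had an adjusted p under 0.05, and neither did any other gene (0%), although 617 genes rose and 628 fell if p was left unadjusted, at the same 0.05. For every member the trained and untrained ranges overlapped, whereas 0.763% of all genes had ranges that did not. The member means were higher in trained mice for 5 genes and lower for 5, with a median log2 difference of 0.03, or -0.01 without Per1, against -0.003 over all genes. The p-values measure the spread between mice, 1 library each.

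**Figure D1:**
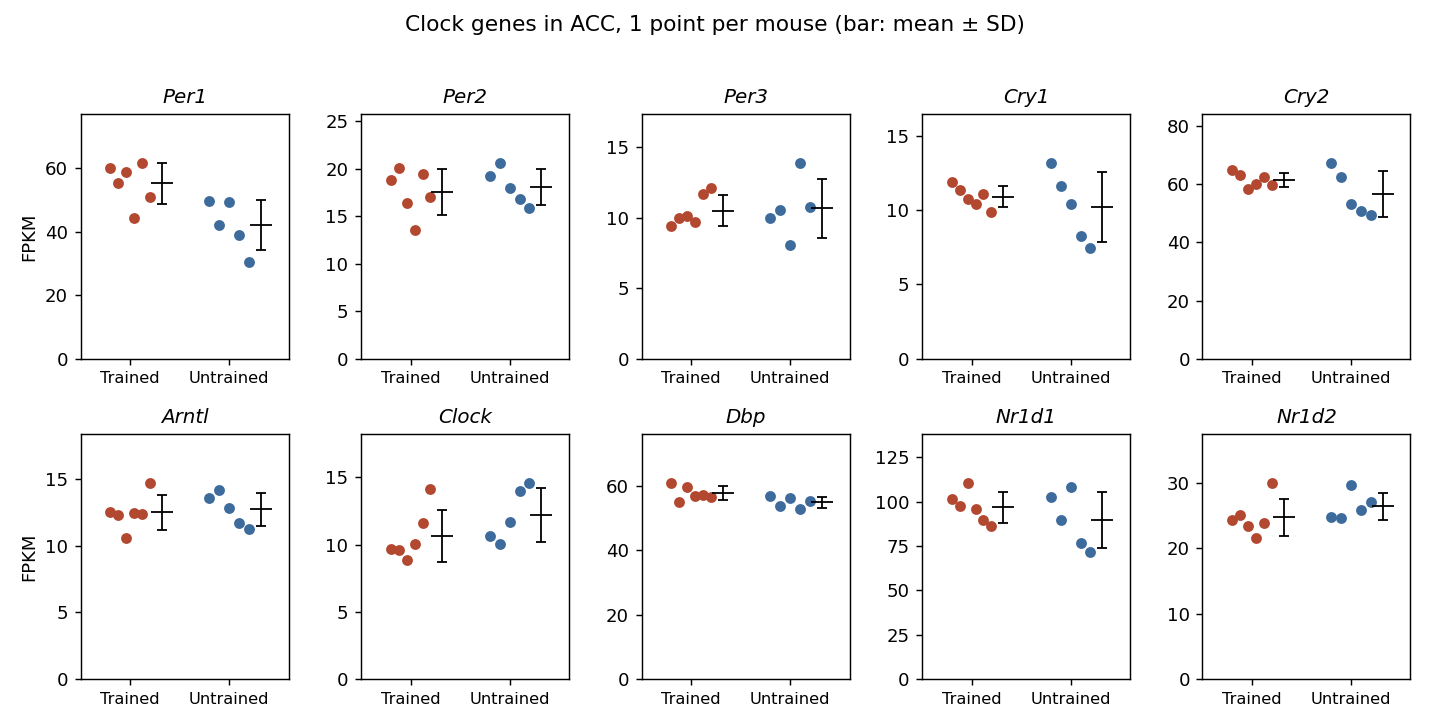
FPKM (vertical axis, starting at 0) of the 10 clock genes in each of 6 trained (red) and 5 untrained (blue) mice, with 1 point per mouse and black bars for the mean ± SD. Per1 averaged 55.2 ± 6.51 FPKM with training and 42.1 ± 7.97 FPKM without, and the ranges of the groups overlapped for all 10 genes.

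Per1 (ENSMUSG00000020893.17, GRCm38, chr11:69095217-69109960, plus strand) encodes PER1, a repressor of CLOCK and ARNTL. Its start-site regions are printed for the elements by which clock factors and cAMP signals are known to reach Per genes. In RefSeq windows on GRCm38.p6, from 250 bases before to 50 after an annotated start, the first Per1 window held an E-box (CACGTG) and, at a distance, a D-box (TTATGCAA). The second, further downstream, held the core TGACGT of a cAMP response element. Capitals mark the matched letters, and all stretches are written 5′ to 3′ on the plus strand.
Per1 E-box, chr11:69098758-69098813: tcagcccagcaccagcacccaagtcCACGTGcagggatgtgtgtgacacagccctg
Per1 D-box, chr11:69098915-69098942: gggcctggcaTTATGCAAcccgcctccc
Per1 cAMP element core, chr11:69099995-69100050: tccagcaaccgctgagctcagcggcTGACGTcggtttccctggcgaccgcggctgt
None of the 3 stretches overlaps an exon in GENCODE M21. Both strands were searched in all 32851 windows of the table, and 7.15% held CACGTG, 1.66% held a D-box (TTATGTAA or TTATGCAA) and 7.51% held TGACGT. The full element TGACGTCA, which contains TGACGT, was in 1.79% of all windows and in no window of a member. The letters searched were chosen after the windows had been seen, and a match describes the sequence only.

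Per1 was at 60.1, 55.3, 58.8, 44.4, 61.6 and 51.0 FPKM in Trained 1, 2, 3, 12, 13 and 14. It was at 49.7, 42.2, 49.2, 38.9 and 30.5 FPKM in Untrained 5, 6, 10, 16 and 17. All trained mice but Trained 12 lay above the highest untrained mouse, and 3 of 5 untrained mice lay below the lowest trained one. Trained mice averaged 55.2 ± 6.51 FPKM (SD, n = 6) and untrained mice 42.1 ± 7.97 FPKM (SD, n = 5), a ratio of 1.31. On the log2(FPKM + 0.1) scale the difference was 0.40 (SE 0.121, 95% interval 0.14 to 0.66), with an adjusted p = 0.537 by limma with Benjamini-Hochberg adjustment over all genes. The exact permutation test, with 462 ways to choose 6 of 11 libraries, gave p = 0.0152 (two-sided, unadjusted, smallest possible 0.00216). By its unadjusted limma p, Per1 ranked 76th among the 7329 genes that were higher in trained mice. The difference was smaller without Untrained 16 and 17, the lowest libraries. It was 0.29 without Untrained 17 and 0.23 (95% interval 0.0007 to 0.45) without both, where the exact permutation test gave p = 0.0952. Leaving out the lowest untrained libraries can only lower the difference, and that test had 84 splits in place of 462.

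Over all 11 libraries, where the difference between the groups enters, Per1 was the most variable of the 10 genes. Its coefficient of variation over the 11 libraries was 19.6%, more than that of 97.2% of the 1411 genes within 1.5-fold of its level. In trained mice alone it was 11.8%, and in untrained mice 18.9%. Within groups other members varied more: Clock (18.1%) and Per2 (13.8%) in trained mice, and Cry1 (23.0%) and Per3 (19.6%) in untrained mice. From the estimated depth, the fewest Per1 fragments in a library were about 2461, for a counting error of 2.02%.

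The difference in Per1 was above 0 in both ranges of library numbers and in both sexes, which are nearly the same division, and did not pass the threshold in males. Among libraries 1 to 6 it was 0.34 and among libraries 10 to 17 it was 0.42, each at an unadjusted limma p under 0.05. In females alone it was 0.54, past that threshold, and in males alone it was 0.24 and did not pass it. The 2 divisions differ only in Untrained 17, the lowest library for Per1. It counts with the females in the one and with libraries 10 to 17 in the other. The difference between the sexes in the training effect, males minus females, was -0.29 (SE 0.244, limma adjusted p = 0.959). Of 14936 genes tested for that difference, 0 had a limma adjusted p under 0.05, and 613 an unadjusted one.

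Per2 and Per3, the other Period genes, had no such difference. Per2 (ENSMUSG00000055866.9, chr1:91415982-91459324, minus strand), which like Per1 encodes a core repressor, ranged from 13.6 to 20.1 FPKM in trained mice around a median of 17.9. In untrained mice it was at 19.2, 20.6, 18.02, 16.8 and 15.9 FPKM in Untrained 5, 6, 10, 16 and 17. Its log2 difference was -0.05 (95% interval -0.26 to 0.16, exact permutation p = 0.675). Per2 was lowest in Trained 12, the trained mouse with the lowest Per1.

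Per3 (ENSMUSG00000028957.12, chr4:151003652-151044665, minus strand) encodes the Period protein that the core loop is known to need least. Its RefSeq window is shown because it held 2 copies of the D-box, the element bound by DBP, on the minus strand and outside annotated exons.
Per3 D-boxes, chr4:151044791-151044895: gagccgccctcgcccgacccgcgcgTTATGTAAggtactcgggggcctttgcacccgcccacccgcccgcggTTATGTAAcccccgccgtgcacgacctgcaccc
Per3 was at 9.44 to 12.1 FPKM in trained mice, with a median of 10.05, and at 9.99, 10.6, 8.10, 13.9 and 10.8 FPKM in Untrained 5, 6, 10, 16 and 17. The untrained libraries spanned the whole trained range, with Untrained 10 lowest and Untrained 16 highest of all 11. The log2 difference was -0.01 (95% interval -0.25 to 0.24, exact permutation p = 0.968). All 41014 bases of Per3 lie within the span of Camta1 on the same strand, so fragments could not be assigned with certainty where exons overlap. Camta1, a calmodulin-binding transcription factor gene, averaged 36.1 ± 3.98 FPKM over 6 trained mice and 39.6 ± 7.32 FPKM over 5 untrained ones (SD).

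Cry1 and Cry2 encode the cryptochromes, the partners of the PER proteins and strong repressors of the loop. Cry1 (ENSMUSG00000020038.10, chr10:85131700-85185064, minus strand) has an E-box close to its start, printed on the minus strand. This stretch overlaps no annotated exon.
Cry1 E-box, chr10:85185084-85185139: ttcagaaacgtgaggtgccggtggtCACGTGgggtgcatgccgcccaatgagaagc
Cry1 was at 9.87 to 11.9 FPKM in trained mice, with a median of 10.9. It was at 13.2, 11.6, 10.4, 8.26 and 7.48 FPKM in Untrained 5, 6, 10, 16 and 17. The trained mice lay inside the untrained range, whose highest library was Untrained 5 and whose lowest were Untrained 16 and 17. The log2 difference of 0.12 (95% interval -0.14 to 0.39, exact permutation p = 0.403) had the opposite sign, -0.10, without those 2 libraries.

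Cry2 (ENSMUSG00000068742.11, chr2:92403646-92434043, minus strand) was at 58.4 to 65.05 FPKM in trained mice, with a median of 61.2. It was at 67.3, 62.4, 53.2, 50.8 and 49.4 FPKM in Untrained 5, 6, 10, 16 and 17. Again the untrained mice were spread on both sides of the trained ones. The log2 difference was 0.13 (95% interval -0.04 to 0.29, exact permutation p = 0.156), and 0.02 without Untrained 16 and 17. Without Untrained 5, the highest library, it was 0.19 and passed an unadjusted limma p under 0.05. Cry2 also passed it in libraries 10 to 17 alone (0.25) and in males alone (0.22), in which Per1 did not pass. In libraries 1 to 6 alone it was at -0.06. D930015M05Rik, a transcript on the opposite strand that shares 23417 bases with Cry2, averaged 1.16 ± 0.670 and 1.06 ± 0.625 FPKM (SD) in the trained and the untrained group.

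Arntl and Clock encode the activators of the loop, and neither rose or fell by the test over all libraries. Arntl (ENSMUSG00000055116.8, chr7:113207465-113314126, plus strand) is the member that the REV-ERB receptors repress, and their element has the core TAGGTCA, present in 2.61% of all windows. It occurred once near the Arntl start, on the plus strand within an exon of GENCODE M21.
Arntl REV-ERB core, chr7:113207531-113207557: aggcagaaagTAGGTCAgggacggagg
Arntl ranged from 10.6 to 14.7 FPKM in trained mice, with a median of 12.5, and was at 13.6, 14.2, 12.9, 11.7 and 11.3 FPKM in Untrained 5, 6, 10, 16 and 17. Over all 11 libraries it was among the steadiest members, with a coefficient of variation of 9.62%. The log2 difference was -0.03 (95% interval -0.21 to 0.15, exact permutation p = 0.773). In libraries 1 to 6 alone it was -0.23 and passed an unadjusted limma p under 0.05, and in libraries 10 to 17 alone it was 0.14 and did not.

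Clock (ENSMUSG00000029238.11, chr5:76209868-76304792, minus strand) had the largest difference below 0 among the members, but within the spread between mice. It was at 9.70, 9.59, 8.87, 10.05, 11.6 and 14.15 FPKM in Trained 1, 2, 3, 12, 13 and 14. It was at 10.7, 10.1, 11.7, 13.96 and 14.6 FPKM in Untrained 5, 6, 10, 16 and 17. The high libraries were Trained 14 and Untrained 16 and 17, which are all numbered above 10, and the lowest was Trained 3. The log2 difference between the groups was -0.19 (95% interval -0.47 to 0.08, exact permutation p = 0.201), and -0.04 without Untrained 16 and 17. Without Trained 14 it was -0.28, and in females alone -0.30, and both passed an unadjusted limma p under 0.05. At that threshold 1236 of 14936 genes were lower without Trained 14 and 720 in females alone, against 628 over all libraries. Between the ranges of library numbers, with the group in the fit, Clock was 0.34 higher on the log2 scale in libraries 10 to 17 (SE 0.0850, limma adjusted p = 0.0249). Between males and females, with the group in the fit, Clock was 0.24 higher in males (SE 0.109, limma adjusted p = 0.209), and the 2 divisions can hardly be told apart. No other member passed an adjusted p under 0.05 between the number ranges, as 9.51% of all genes did. The next smallest adjusted p was that of Cry1, which was lower in libraries 10 to 17 (-0.29, limma adjusted p = 0.0748).

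Nr1d1 and Nr1d2 encode the REV-ERB receptors of the second loop. Nr1d1 (ENSMUSG00000020889.11, chr11:98767932-98775333, minus strand) had the highest level of the 10 genes. It was at 86.1 to 110.5 FPKM in trained mice, with a median of 97.0, and at 102.5, 89.97, 108.3, 77.0 and 71.6 FPKM in Untrained 5, 6, 10, 16 and 17. The highest library was Trained 3, closely followed by Untrained 10, and the lowest were again Untrained 16 and 17. The log2 difference was 0.12 (95% interval -0.10 to 0.35, exact permutation p = 0.329), and -0.05 without those 2 libraries. Thra, the thyroid hormone receptor α gene, shares 1075 bases with Nr1d1 on the opposite strand and averaged 281 ± 9.66 and 277 ± 24.2 FPKM (SD) in the trained and the untrained group. The library kit marks strand, but no source used here gives the strand setting of the read counting. How reads from the shared bases were counted is therefore not known.

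Nr1d2 (ENSMUSG00000021775.11, chr14:18204054-18239127, minus strand) did not follow its paralog. It was at 21.6 to 29.9 FPKM in trained mice, with a median of 24.1, and at 24.8, 24.6, 29.7, 25.8 and 27.0 FPKM in Untrained 5, 6, 10, 16 and 17. Its highest libraries were Trained 14 and Untrained 10, and Trained 12 was lowest. The log2 difference was -0.10 (95% interval -0.27 to 0.07, exact permutation p = 0.262), and without Trained 14 it was -0.15 and passed an unadjusted limma p under 0.05. Without Trained 14, 1236 of 14936 genes were lower at that threshold, against 628 over all libraries.

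Dbp (ENSMUSG00000059824.12, chr7:45705088-45710203, plus strand) encodes the D-box activator of clock output. It was the steadiest member. It was at 60.9, 54.9, 59.7, 56.8, 57.2 and 56.7 FPKM in Trained 1, 2, 3, 12, 13 and 14, and at 56.8, 53.6, 56.3, 52.8 and 55.2 FPKM in Untrained 5, 6, 10, 16 and 17. The trained values sat slightly above the untrained ones with overlap. Its coefficient of variation was 4.19%, and only 8.29% of the genes within 1.5-fold of its level varied less. The log2 difference was 0.07 (95% interval -0.02 to 0.16), with a limma adjusted p = 0.650 and an unadjusted p = 0.0498 by the two-sided exact permutation test. By limma Dbp did not pass an unadjusted p under 0.05. With each library's trend on gene GC content and length removed, an alternative chosen after the data had been seen, it was -0.02. Dbp was at percentile 97.7 of GC content. Sphk2, a sphingosine kinase gene that shares 737 bases with Dbp on the opposite strand, averaged 7.53 ± 0.708 and 7.01 ± 0.486 FPKM (SD) in the trained and the untrained group.

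**Figure D2:**
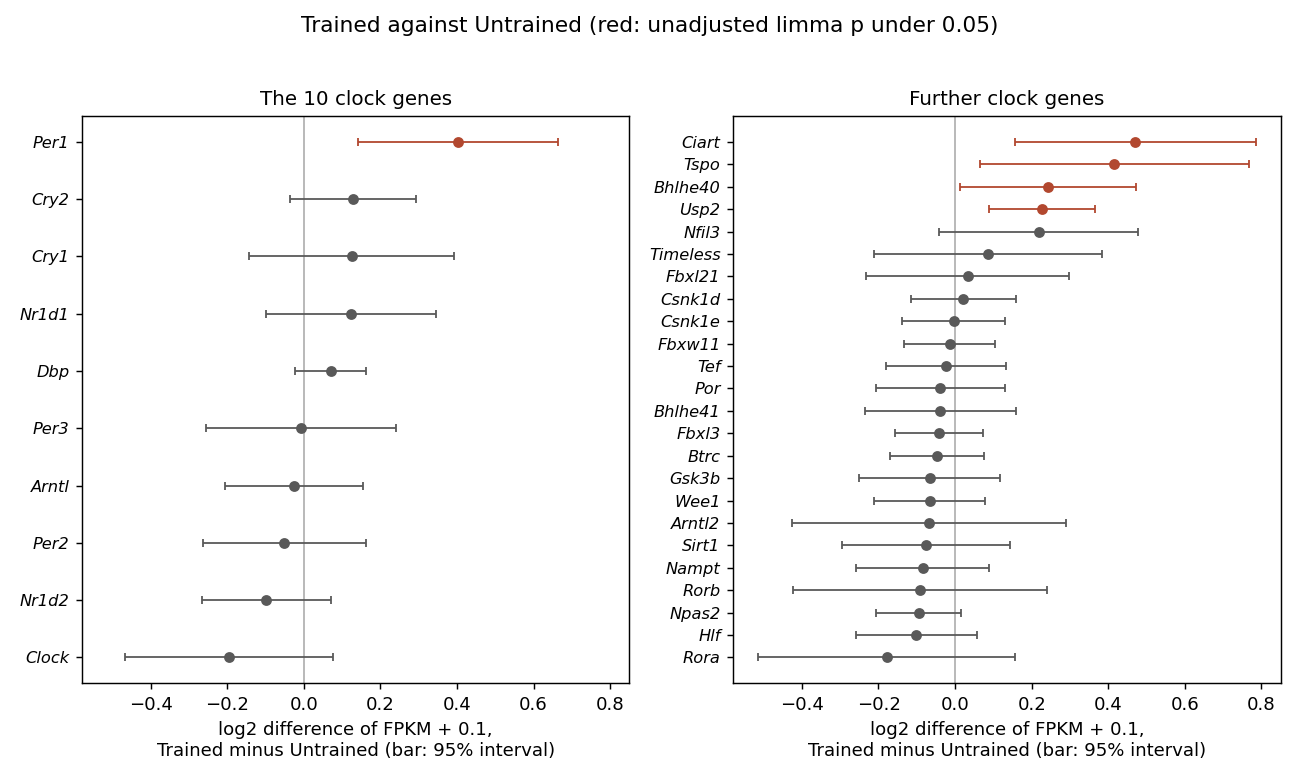
Log2 difference of FPKM + 0.1, trained minus untrained (horizontal axis), for the 10 clock genes (left) and further clock genes (right), with points for the limma estimate, bars for the 95% interval and red for an unadjusted p under 0.05. Per1, at 0.40, was the only one of the 10 in red, and Ciart, Tspo, Bhlhe40 and Usp2 were red on the right.

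Only Per1 passed an unadjusted limma p under 0.05, and whether its difference exceeded those of the others was not tested. The next comparison was whether Per1 moved with the other members from mouse to mouse. Pearson's r and Spearman's ρ of log2 values over the 11 libraries were computed for all 45 pairs of members, with permutation p-values adjusted over the 45 pairs. Per1 correlated most with Nr1d1 (r = 0.74, p = 0.00871, adjusted p = 0.0734; ρ = 0.47, p = 0.147) and with Cry1 (r = 0.74, p = 0.0113, adjusted p = 0.0734; ρ = 0.54, p = 0.0943). Then came Cry2 (r = 0.69, p = 0.0175, adjusted p = 0.0983; ρ = 0.60, p = 0.0569) and Dbp (r = 0.66, p = 0.0286, adjusted p = 0.120; ρ = 0.75, p = 0.0109). With Clock the sign was negative (r = -0.60, p = 0.0455, adjusted p = 0.158; ρ = -0.53, p = 0.0992). None of these pairs passed an adjusted permutation p under 0.05. The other 4 pairs with Per1 had smaller r, at 0.39 for Per2, 0.10 for Arntl, -0.21 for Nr1d2 and -0.26 for Per3.

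The relation of Per1 to Cry1, Cry2 and Nr1d1 rested on Untrained 16 and 17, the 2 libraries farthest from the Per1 median. Without them r fell to 0.07 for Cry1, 0.15 for Cry2 and 0.22 for Nr1d1. The value for Dbp was 0.67 without them, but 0.005 over all libraries once the trend on GC content and length was removed. Centred within each group, r was 0.78 for Cry1, 0.59 for Cry2, 0.75 for Nr1d1 and 0.41 for Dbp. Centred within each group and range of library numbers, r with Cry1 was 0.85 (permutation p adjusted over 45 pairs = 0.0338). Centring leaves fewer free values than the permutation assumed, so this p is likely too small and is not read as a pass.

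The only pair of members that passed the adjusted threshold over all libraries did not include Per1. Cry1 and Cry2, the paralogs, correlated at r = 0.92 (permutation p = 9e-05, adjusted p = 0.00405) and ρ = 0.90 (permutation p = 0.00036). Their r was 0.93 within groups, 0.80 within groups and ranges of library numbers, and 0.77 without Untrained 16 and 17, which are farthest from the Cry1 median too.

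**Figure D3:**
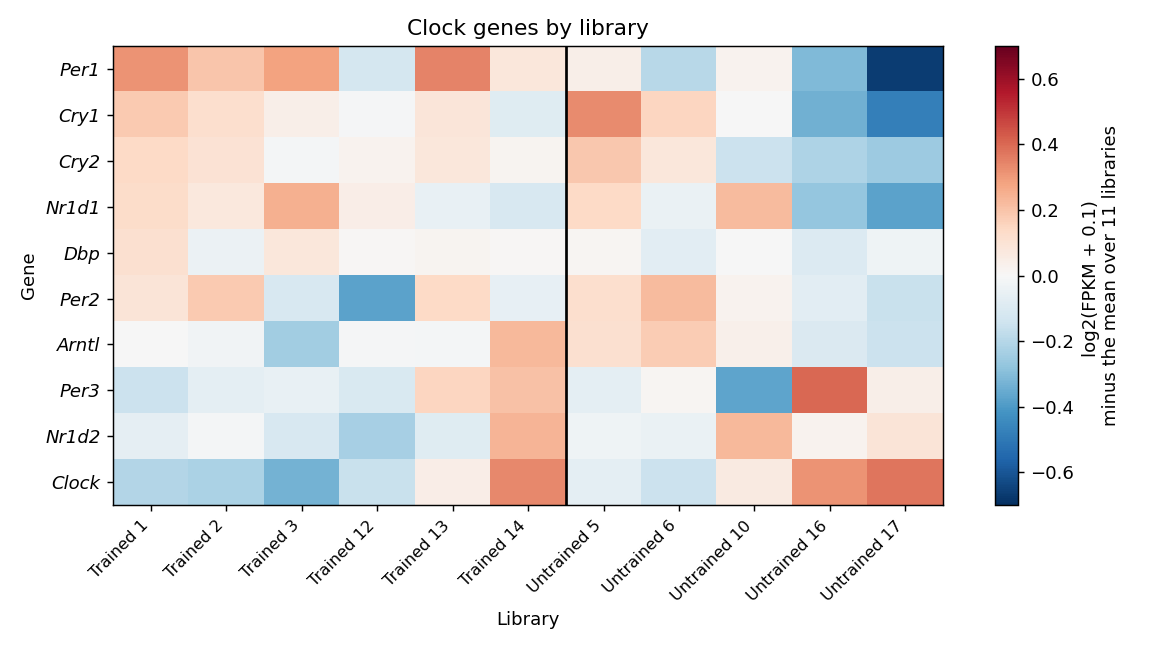
Log2(FPKM + 0.1) of each clock gene (rows) in each library (columns) minus the gene's mean over the 11 libraries, red above and blue below that mean, with trained mice left of the line. Untrained 16 and 17 were low in Per1 (-0.31 and -0.66), Cry1 (-0.34 and -0.48) and Nr1d1 (-0.27 and -0.38) and high in Clock (0.32 and 0.38).

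Untrained 16 and 17 were therefore at the low or the high end in several members at once. Relative to each gene's mean over the 11 libraries, these libraries were at -0.31 and -0.66 in Per1, -0.34 and -0.48 in Cry1, -0.22 and -0.26 in Cry2 and -0.27 and -0.38 in Nr1d1, on the log2 scale. In Clock they were at 0.32 and 0.38. Arntl and Per2 were below their means in both libraries too, and Per3 and Nr1d2 above. They were not the only such libraries: Trained 14 was at 0.34 in Clock, 0.24 in Nr1d2, 0.23 in Arntl and 0.21 in Per3. The mean deviation of the 9 members other than Per1 was between -0.10 and 0.09 in every library. Members that moved in opposite directions, such as Cry1 and Clock in Untrained 16 and 17, cancel in this mean. A mean near 0 therefore does not show that the single members stayed level. Per1 minus the mean of the other 9 members was -0.03 to 0.34 in trained mice and -0.56 to 0.02 in untrained mice.

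The libraries also differed in their trend on GC content and in depth, which matched the pattern of Untrained 16 and 17 only in part. Gene deviations correlated across genes with GC content at 0.153 to 0.287 in Trained 1, 2, 3, 12 and 13 and Untrained 5 and 6, and at -0.356 to -0.239 in Trained 14 and Untrained 10, 16 and 17. Clock and Nr1d2, at percentiles 8.3 and 11.2 of GC content, were above their means in all 4 libraries of the second kind, and Per1, rich in GC (percentile 93.8), was above its mean in 2 of them, Trained 14 and Untrained 10. Nr1d1, at percentile 85.2, was at 0.22 in Untrained 10. With the trend on GC content and length removed, the difference between the groups was -0.08 for Clock and -0.0035 for Nr1d2. That of Per1 was 0.35, still at an unadjusted limma p under 0.05, and its r with Cry1 was 0.69. The estimated depth was 14.35 to 27.0 M fragments per library, lowest in Untrained 17. It was read from the steps between low FPKM values, of which 44.7 to 53.0% came to within 0.1 of whole fragments, and is approximate. By this estimate every member had at least 359 fragments in each library, a counting error of at most 5.28%, reached by Cry1.

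The dissection carried cortical markers in all 11 libraries. Slc17a7, the vesicular glutamate transporter of cortical excitatory neurons, averaged 740 ± 26.8 and 731 ± 21.1 FPKM (SD) in the trained and the untrained group. Of 5 markers of the suprachiasmatic nucleus, the seat of the central clock, 0 were in the table. Summed markers of oligodendrocytes ran from 258 to 968 FPKM in the trained and from 312 to 554 FPKM in the untrained group, and those of astrocytes at 216 to 230 and 221 to 267 FPKM. Of the astrocyte markers 1 of 5, Gja1, was lower in the trained group if limma p was left unadjusted (two-sided exact permutation p = 0.0455). Of all genes, 4.2% were lower at an unadjusted limma p under 0.05. Of 2 measured choroid plexus markers, Kl was lower on the same criterion (exact permutation p = 0.00866), and their sum was at most 4.40 FPKM in trained mice but reached 167 FPKM in Untrained 10, where Ttr alone was at 164 FPKM. The part of cell composition in the clock gene values was not tested, and in tissue RNA fewer cells of a type and less RNA per cell cannot be told apart.

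Outside the 10 genes, 25 of a list of 26 further clock genes were measured, of which 4 rose with training at an unadjusted limma p under 0.05 and 0 fell. Of all genes, 4.13% rose and 4.2% fell at that threshold. None of the further clock genes passed the study's thresholds or an adjusted p under 0.05. Their median log2 difference was -0.04, with 8 means higher and 17 lower. The 4 higher genes were Ciart, Usp2, Bhlhe40 and Tspo.

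Ciart and Bhlhe40 encode repressors that act on the same E-boxes as the PER and CRY proteins. Ciart averaged 14.5 ± 2.46 FPKM over the 6 trained and 10.5 ± 2.14 FPKM over the 5 untrained mice (SD), a log2 difference of 0.47 (SE 0.146, two-sided exact permutation p = 0.0195). Bhlhe40 averaged 98.6 ± 9.43 and 84.1 ± 14.5 FPKM, a log2 difference of 0.24 (SE 0.107, exact permutation p = 0.0736), so its call rested on the limma fit. Bhlhe41, its paralog, averaged 11.1 ± 1.32 and 11.4 ± 1.06 FPKM, with the smallest difference of these repressors (-0.04). Without Untrained 16 and 17 the differences were 0.27 (exact permutation p = 0.0952) for Ciart and 0.06 (exact permutation p = 0.476) for Bhlhe40, and neither passed an unadjusted limma p under 0.05.

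Usp2, a deubiquitinase that acts on clock proteins, and Tspo, a protein of the outer mitochondrial membrane, were the other higher genes. Usp2 averaged 23.9 ± 1.20 FPKM over the 6 trained and 20.5 ± 1.88 FPKM over the 5 untrained mice (log2 difference 0.23, SE 0.0639, two-sided exact permutation p = 0.00433), and 5 of 6 trained mice were above every untrained one. Tspo averaged 2.64 ± 0.229 and 2.02 ± 0.593 FPKM (0.42, SE 0.164, exact permutation p = 0.0368). Without Untrained 16 and 17 Usp2 was 0.16 higher and Tspo 0.48 higher (exact permutation p = 0.0357 for each). Por, the cytochrome P450 reductase gene, had the smallest difference among these partners and outputs (-0.04).

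The remaining roles held no gene past an unadjusted limma p of 0.05. Among partners and paralogs of the activators, Npas2, which can replace CLOCK in the forebrain, averaged 14.4 ± 0.538 and 15.4 ± 0.774 FPKM (SD) in the trained and the untrained group. Its log2 difference was -0.10 (exact permutation p = 0.0303), and that of Arntl2 was -0.07. Of the nuclear receptors that activate Arntl, Rora had the largest difference (-0.18, exact permutation p = 0.344). Among the relatives of Dbp and their antagonist, Nfil3, the repressor at D-boxes, averaged 6.10 ± 0.843 and 5.24 ± 0.888 FPKM (0.22, exact permutation p = 0.128), and Tef had the smallest difference (-0.02). Of 7 kinases and ubiquitin ligases of the PER and CRY proteins, Gsk3b had the largest difference (-0.07, exact permutation p = 0.496) and Csnk1e, casein kinase 1ε, the smallest (-0.004).

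The 5 genes most like Per1 across the 11 libraries included none of the other 9 members. Among 12807 other genes averaging 1 FPKM or more, Pearson's r was highest for Prkd2 (0.97), a protein kinase D gene, then Mtcl1 (0.96), a microtubule crosslinking factor gene, Usp2 (0.96), Usp36 (0.96), a nucleolar deubiquitinase gene, and Mob3a (0.94). Within groups r was 0.89 to 0.96 for these 5 genes, and without Untrained 16 and 17 it was 0.83 to 0.93. The best of the other 9 members, Nr1d1, was at rank 221 of the 12807. The 5 genes were picked for the highest r in these same libraries, and the members were not. Their r therefore cannot be compared with that of the members. These correlations describe the 11 libraries and share their depth and GC pattern.

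For Dbp the 5 most alike genes were 4931406P16Rik (r = 0.92), Ppp1r2-ps3 (0.91), Crtc3 (0.91), a CREB coactivator gene, Fam102a (0.88) and Polr2d (0.84), a subunit gene of RNA polymerase II. The best member was Per1, at rank 204 of 12807. No gene was in both lists of 5.

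Genes that are induced through the routes known to induce Per1 were set beside it. Of 10 genes induced by cAMP, calcium or CREB, 9 rose with training at an unadjusted limma p under 0.05, against 4.13% of all genes. The thresholds of the study were passed upward by 8 of them, against 0.147% of all genes. The median log2 difference of the list was 0.99, and Crem, the gene that did not rise, was at -0.08. This list was chosen with earlier results of these data known. It includes genes that the study reports as higher with training. Its counts were therefore largely settled beforehand and serve as a description only. The 10 include Fos, Arc and Npas4, early genes of active neurons. Across the 11 libraries Per1 had an r of 0.83 with Fos, 0.82 with Arc and 0.66 with Npas4, given as a description. Untrained 16 and 17 were the lowest libraries for each of these genes, as for Per1. They were at 18.75 and 12.65 FPKM in Fos, 82.35 and 55.02 in Arc, and 7.655 and 6.586 in Npas4. The r with these genes was not examined without those libraries, so it cannot be set against the r of Per1 with other members. The Per1 difference of 0.40 was smaller than those of Fos (1.20), Arc (1.09) and Npas4 (1.15). Without Untrained 16 and 17 these were 0.77, 0.67 and 0.78, beside 0.23 for Per1.

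Of 10 genes induced by glucocorticoid, 0 rose and 1 fell at an unadjusted limma p under 0.05, beside 4.13% and 4.2% of all genes. Their median log2 difference was -0.04, with 4 means higher and 6 lower. This list was also chosen with earlier results known. The gene that fell at that threshold was Fkbp5, which encodes a chaperone partner of the glucocorticoid receptor. It averaged 14.2 ± 0.670 and 18.8 ± 5.34 FPKM (SD) in the trained and the untrained group (log2 difference -0.36, exact permutation p = 0.0844). Its highest libraries were Untrained 16 and 17, at 25.4 and 21.5 FPKM, the lowest for Per1, and its r with Per1 was -0.67. Of the other genes of this list that were compared with Per1, r was -0.48 for Zbtb16, -0.37 for Tsc22d3 and -0.03 for Sgk1. The remaining genes of the list were not compared with Per1. The route by which Per1 came to differ between the groups was not tested.

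**Figure D4:**
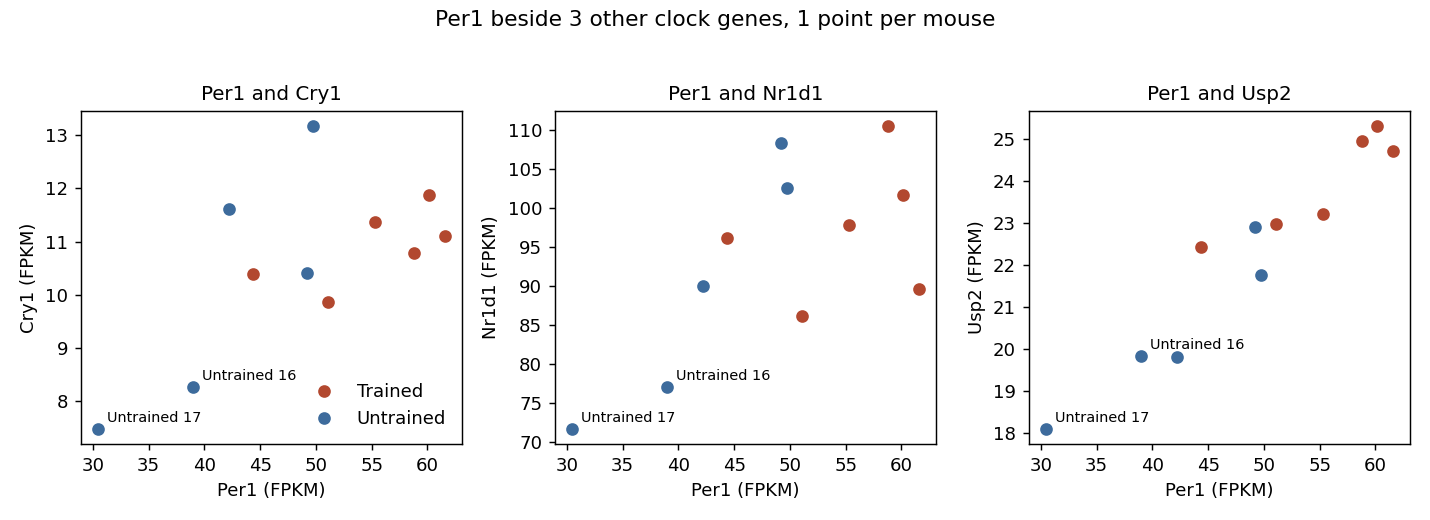
Per1 (horizontal axes, FPKM) against Cry1, Nr1d1 and Usp2 (vertical axes, FPKM, not starting at 0) in 6 trained (red) and 5 untrained (blue) mice. With Cry1 and Nr1d1 the relation rested on Untrained 16 and 17 (r = 0.74 for each with them, 0.07 and 0.22 without), whereas with Usp2 the points followed one line (r = 0.96, and 0.91 without them). Usp2 is shown as one of the genes with the highest r in these same libraries, and Cry1 and Nr1d1 were not picked in that way.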

How the data were processed

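ACC RNA of 6 trained and 5 untrained mice was made into libraries with a stranded mRNA kit. The authors used Trimmomatic 0.38 for trimming, Bowtie2 2.3.5.1 for alignment (genome mm10) and featureCounts (Subread 1.6.3) for counting. The authors deposited FPKM values, which are scaled to gene length and library size. No source used here gives the annotation, the strand setting or the FPKM step. A deposited table of the authors' edgeR 3.30.3 comparison (log2 fold change, p-value and false discovery rate per gene) was not used.

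Genes averaging under 0.1 FPKM were dropped. Log2(FPKM + 0.1) was compared with limma 3.58.1 in R 4.3.3 (lmFit, eBayes with trend, no covariate), with Benjamini-Hochberg adjustment over all genes tested. FPKM are not counts, so no count model was fitted, and fold changes of low genes are understated by the pseudocount. Correlations used 100000 permutations, and single genes an exact permutation test. Python 3.11.15, numpy 2.4.6, pandas 2.3.3, scipy 1.17.1 and matplotlib 3.10.9 were used. The fit was tested on simulated data. The study's thresholds were an unadjusted p under 0.01 and 1.5-fold. Coordinates come from GENCODE M21 and promoter sequences from RefSeq (GRCm38.p6), where 9 of 10 members matched.

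The 10 members, the lists and the tests were chosen with earlier results of these data known. Named genes are the members, in the further clock list those at p under 0.05 and those with the largest and smallest difference in each role, the 5 genes most correlated with Per1 and with Dbp, Fos, Arc and Npas4, and genes overlapping a member. Of the genes this rule names, 1 is not reported here. Crem, Fkbp5, Sgk1, Tsc22d3, Zbtb16, Gja1, Kl and Ttr were named after their values were seen. Alternatives were pseudocounts of 0.01 and 1, a minimum mean of 1 FPKM or none, quantile normalization, median centring, sex or library number range as a covariate, robust variance, array weights, subsets of libraries by number or sex, other thresholds, each library left out in turn, and, added after the data had been seen, removal of a trend on GC content and length and correlations without Untrained 16 and 17.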

Additional observations from a re-analysis of the deposited data

How the results depend on the processing

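No member passed the study's thresholds or an adjusted limma p under 0.05 in any of 28 settings. The Per1 difference was above 0 in all 28 and past an unadjusted limma p of 0.05 in all but males alone (0.24). Leaving out 1 library at a time gave 0.29 to 0.47 for Per1, -0.0965 to 0.0203 for Per2, -0.0999 to 0.0928 for Per3 and -0.0731 to 0.0212 for Arntl. In 1 or more settings the differences of all other members but Clock and Nr1d2 changed sign. Without Untrained 16 and 17, Per3 was at 0.14, Cry1 at -0.10 and Nr1d1 at -0.0483. Without Untrained 10 and 16, Per3 was at 0.0021. In libraries 1 to 6 alone, Cry1 was at -0.12 and Cry2 at -0.0606, and in libraries 10 to 17 alone, Per3 was at 0.058 and Arntl at 0.14, against -0.23 for Arntl in libraries 1 to 6. In males alone, Per3 was at 0.0661, Arntl at 0.10 and Nr1d1 at -0.0124. With the number range as a covariate Per3 was at 0.0051, and with the GC and length trend removed Dbp was at -0.0218.

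Members higher at an unadjusted p under 0.05 were 1 to 2 and members lower 0 to 2 with 1 library left out, against 1 and 0. The 2 higher were Per1 and Cry2 without Untrained 5, where 814 of 14936 genes were higher, against 617 over all libraries. The 2 lower were Clock and Nr1d2 without Trained 14, where 1236 genes were lower, against 628. In libraries 10 to 17 alone 2 members were higher (Per1 and Cry2), as were 564 of 14936 genes. In libraries 1 to 6 alone 1 member was lower (Arntl), as were 478 genes. In females alone 1 member was lower (Clock), as were 720 genes. Pairs of members with an adjusted permutation p under 0.05 were 4 within groups and number ranges. That count may be too high, because centring leaves fewer free values than the permutation assumed. There were 4 after median centring, and 0 without the 2 farthest libraries or without Untrained 16 and 17, where fewer libraries enter. The r of Per1 with Per3 was 0.16 and with Arntl -0.56 in both of the last settings, and with Nr1d2 it was 0.0564 within groups, 0.30 within groups and ranges, and 0.39 after removal of the GC and length trend. The cause of these changes was not tested. No paired analysis was possible because the groups share no replicate numbers. With 6 and 5 mice, a difference smaller than the distance from an estimate to the end of its printed interval could not pass an unadjusted p of 0.05.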
